A study of Mus musculus with 12 samples.

Results

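The calcium/calmodulin-dependent protein kinases (CaM kinases) were followed through 10 genes: Camk2a, Camk2b, Camk2d and Camk2g, Camk4, Camkk1 and Camkk2, and Camk1, Camk1d and Camk1g. They were picked out by gene name from the 27381 genes of the array, with earlier results of these data known. The table that names the array's probe sets gave 9 of them, and Camkk1 was found through its Entrez identifier (55984). Expression was measured with Affymetrix Mouse Gene 2.0 ST arrays in 2 brain regions of C57B16/J mice (the spelling of the labels), the hippocampus (HC) and the anterior cingulate cortex (ACC). Trained and control mice of each region gave 3 arrays a group, 12 in all, and control stands for the untrained animals of the labels. All animals, controls included, were deprived of water, had a head bar fitted by surgery at 8 to 12 weeks of age, recovered for 7 days and ran head-fixed on a ball. Trained mice learned to answer a visual cue for water over 27 ± 2.6 days on average, and control mice received water at random times. Per the methods, a pool held RNA from 5 mice for ACC or 7 for HC. These numbers are given with the first 2 pools of a condition, and the later repeat is described as 1 pool for each. The pools of a group are described as biological replicates, and the first 2 as unique. The labels list 16 male and 18 female mice for the series, fewer than the paper does. Which mice went into which pool is not given. Pools 1 and 2 of every group belong to batch 1 and pool 3 to batch 2. ACC and HC were dissected from the same animals, and each trained mouse was paired with a control littermate of the same sex.

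Calcium that enters an active neuron binds calmodulin, and calcium-loaded calmodulin switches these kinases on. CaMKII, whose α, β, δ and γ subunits are encoded by Camk2a, Camk2b, Camk2d and Camk2g, assembles into large rings, phosphorylates itself and so stays active after calcium has fallen, and is needed for long-term potentiation in the hippocampus. A separate cascade starts with the CaM kinase kinases CaMKKα (Camkk1) and CaMKKβ (Camkk2), which phosphorylate CaMKI (Camk1, Camk1d and Camk1g) and CaMKIV (Camk4), and CaMKIV in turn acts on transcription in the nucleus.

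The deposited values are log2 expression values, 1 per gene and array, normalized by the authors with Robust Multiarray Average (RMA). A difference of 1 on this scale is a doubling. The median of an array was between 3.34 and 3.42, and no 2 arrays of a group had a correlation across genes under 0.994. The 1365 odorant and vomeronasal receptor genes, which brain tissue has little use for, had a 95th percentile of 2.76, taken here as the level of background. All 10 kinases were above it, with means over the 12 arrays from 6.29 for Camk1 to 10.7 for Camk2a. Values of different genes come from different probes and were not ranked against each other. Precision is limited by the number of arrays.

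The kinases differed far more between the regions than with training. In a linear model with 4 group means (limma), 9 of the 10 differed between HC and ACC at an adjusted p under 0.05, 6 lower and 3 higher in HC. Over all genes 18.5% were called (8.74% lower and 9.71% higher), and 30.0% among the genes at or above the median level, where all 10 kinases lie. The kinases stand from percentile 83.0 (Camk1) to 99.9 (Camk2a) of mean level, so the latter share is not matched to their level. The median absolute difference was 0.40 for the kinases, 0.10 over all genes and 0.13 over the genes at or above the median level. For 7 of the 10 the 6 pools of HC did not overlap the 6 pools of ACC, against 11.1% of all genes. The 10 kinases were chosen with earlier results of these data known, so these counts and shares describe the set and do not test it. Whether a lower value comes from fewer cells that express a gene or from less RNA in each cell cannot be told apart in dissected tissue.

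**Figure D1:**
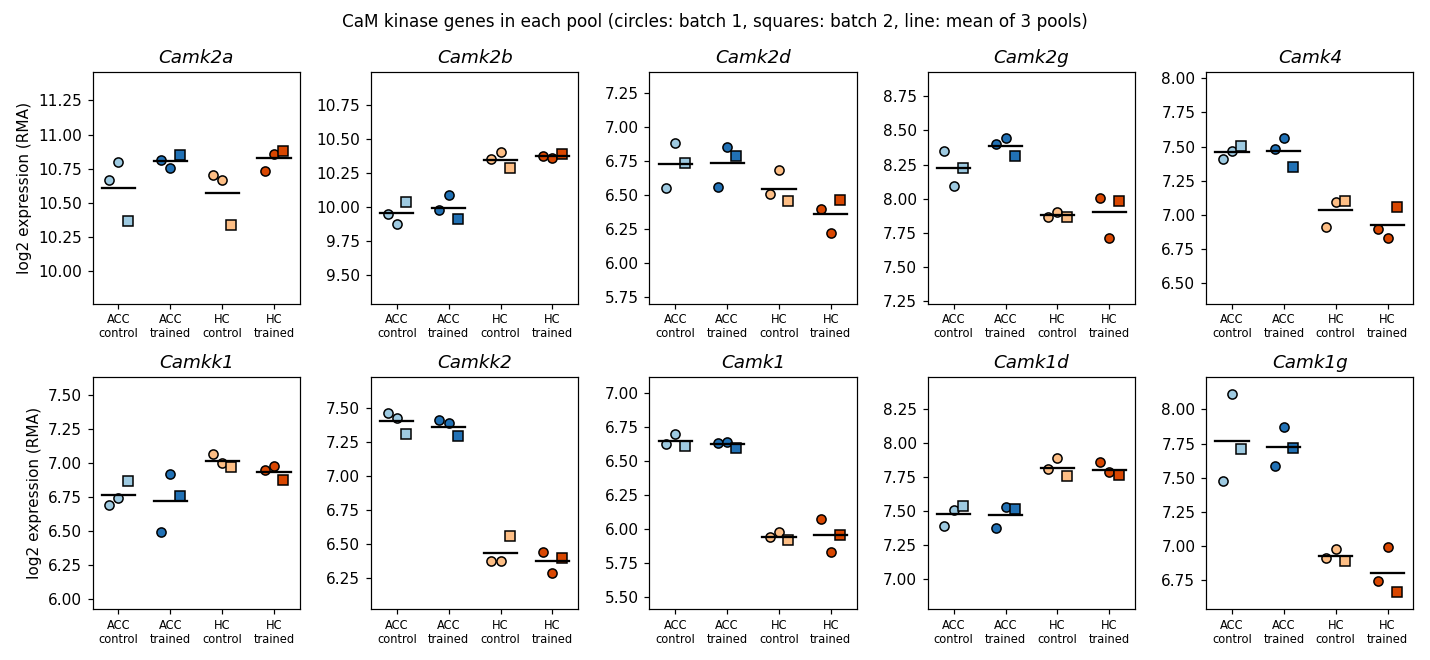
Log2 expression (y axis, RMA, each panel spanning the same range of log2 units) of the 10 CaM kinase genes in the 3 pools of each group (x axis), with circles for batch 1, squares for batch 2 and a line at the mean. HC and ACC lie apart for 7 genes, among them Camkk2 (6.28 to 6.55 in HC against 7.29 to 7.46 in ACC), whereas trained and control pools of a region overlap in all but Camk2a in HC.

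Camkk2 had the largest regional difference of the 10. Its log2 value in the 6 ACC pools ran from 7.29 to 7.46 with a median of 7.40, and in the 6 HC pools from 6.28 to 6.55 with a median of 6.39. Every HC pool was below every ACC pool. The difference, HC minus ACC, was −0.97 (SE 0.058, adjusted p = 1.76e-07 from limma), an expression 1.96-fold lower in HC, and among all genes only 1.16% had an absolute difference as large. In batch 1 it was −1.05 and in batch 2 −0.82. CaMKKβ phosphorylates AMP-activated protein kinase besides the CaM kinases, and so links calcium to energy balance. The other kinase kinase, Camkk1, went the other way, with 6.49 to 6.92 in ACC and 6.87 to 7.06 in HC. It was higher in HC by 0.23 (SE 0.071, adjusted p = 0.0403), with 0.29 in batch 1 and 0.11 in batch 2, and the regions overlapped. The call for Camkk1 was marginal: with batch as a block adjusted p was 0.0608, and it was 0.0542 to 0.0859 when any 1 of 10 of the 12 arrays was left out (all but ACC trained pool 2 and ACC control pool 3).

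Of the CaMKI genes, which lie downstream of both kinase kinases, 2 were lower and 1 was higher in HC. Camk1g encodes CaMKIγ, a lipid-anchored form found at membranes of neurons. It ranged from 7.48 to 8.11 in ACC (median 7.72) and from 6.66 to 6.99 in HC (median 6.90). The difference was −0.88 (SE 0.10, adjusted p = 4.25e-05), 1.84-fold lower in HC, with −0.85 in batch 1 and −0.94 in batch 2. Camk1g also had the widest spread within groups, 0.20 as an SD from the model against a median of 0.13 over all genes. Most of that spread came from the ACC controls, where the pools stood at 7.48, 8.11 and 7.71, while the HC controls stood at 6.91, 6.98 and 6.89.

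Camk1, which encodes CaMKIα, ran from 6.60 to 6.69 in ACC (median 6.63) and from 5.83 to 6.07 in HC (median 5.95). The regions lay well apart, since the gap between them was larger than the range within either region. The difference was −0.68 (SE 0.053, adjusted p = 1.43e-06), 1.61-fold lower in HC, at −0.69 in batch 1 and −0.67 in batch 2. Camk1d, which encodes CaMKIδ, was the exception, at 7.38 to 7.54 in ACC (median 7.51) and 7.76 to 7.89 in HC (median 7.80). It was higher in HC by 0.34 (SE 0.054, adjusted p = 0.000676), or 1.26-fold, at 0.38 in batch 1 and 0.24 in batch 2. Camk4, which encodes the mainly nuclear CaMKIV, ran from 7.35 to 7.56 in ACC (median 7.48) and from 6.83 to 7.10 in HC (median 6.98). It was lower in HC by 1.40-fold, a difference of −0.48 (SE 0.063, adjusted p = 0.000123), at −0.55 in batch 1 and −0.35 in batch 2.

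The 4 CaMKII subunit genes did not move together. Camk2a, the subunit on which most work on hippocampal memory has been done, ran from 10.36 to 10.85 in ACC (median 10.78) and from 10.34 to 10.88 in HC (median 10.72). It was the single kinase not called, with a difference of −0.011 (95% confidence interval −0.19 to 0.17, adjusted p = 0.952). Camk2b, whose β subunit binds actin filaments in dendritic spines, ran from 9.88 to 10.09 in ACC (median 9.96) and from 10.29 to 10.40 in HC (median 10.37), with no overlap. It was higher in HC by 0.39 (SE 0.053, adjusted p = 0.000185), or 1.31-fold, at 0.40 in batch 1 and 0.36 in batch 2.

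The γ and δ subunit genes were lower in HC. Camk2g, whose γ subunit has been described as a carrier of calmodulin to the nucleus, ran from 8.10 to 8.45 in ACC (median 8.33) and from 7.71 to 8.00 in HC (median 7.89). The difference was −0.42 (SE 0.066, adjusted p = 0.000639), 1.33-fold lower in HC, at −0.45 in batch 1 and −0.34 in batch 2. The intervals of Camk2b (0.27 to 0.50) and Camk2g (−0.56 to −0.27) lie on opposite sides of 0. Camk2d, best known from the heart, ran from 6.55 to 6.88 in ACC and from 6.22 to 6.68 in HC, so that the regions overlapped. Its difference of −0.27 (SE 0.078, adjusted p = 0.0274), at −0.26 in batch 1 and −0.30 in batch 2, was the other marginal call. Adjusted p rose to 0.0545 to 0.0669 when any 1 of 7 arrays was left out (ACC trained pools 2 and 3, ACC control pools 2 and 3, HC trained pool 2 and HC control pools 1 and 3).

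Many cell type markers also differed between the regions. Beside their counts stand the 18.5% of all genes called, and the 30.0% among genes at or above the median level. Of 9 markers of cortical layer neurons, 8 were lower in HC and none higher, and their mean ran from 6.79 to 6.98 in the ACC pools and from 5.77 to 6.12 in the HC pools. Of 5 dentate granule neuron markers 4 were higher in HC (means from 4.16 up to 4.34 in ACC and from 5.94 up to 6.10 in HC), as were 5 of 6 markers of CA pyramidal neurons (4.60 to 4.81 and 5.60 to 5.85). All 7 oligodendrocyte markers (7.22 to 8.01 and 8.28 to 8.36) and 5 of 6 astrocyte markers (7.58 to 7.71 and 8.19 to 8.28) were also higher in HC. Of 8 interneuron markers 1 was lower, a share under that of all genes. Among 5 markers of excitatory neurons in general, 3 were higher (Slc17a6, Neurod2 and Neurod6), while Slc17a7 and Nrn1 did not pass. The 5 choroid plexus markers were all higher in HC, 2 of 5 thalamic markers were higher and 1 lower, and 1 of 5 striatal markers was higher and 1 lower. Of 6 microglial markers 1 was higher, also a share under that of all genes. The part of cell composition in the kinase differences was not tested.

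**Figure D2:**
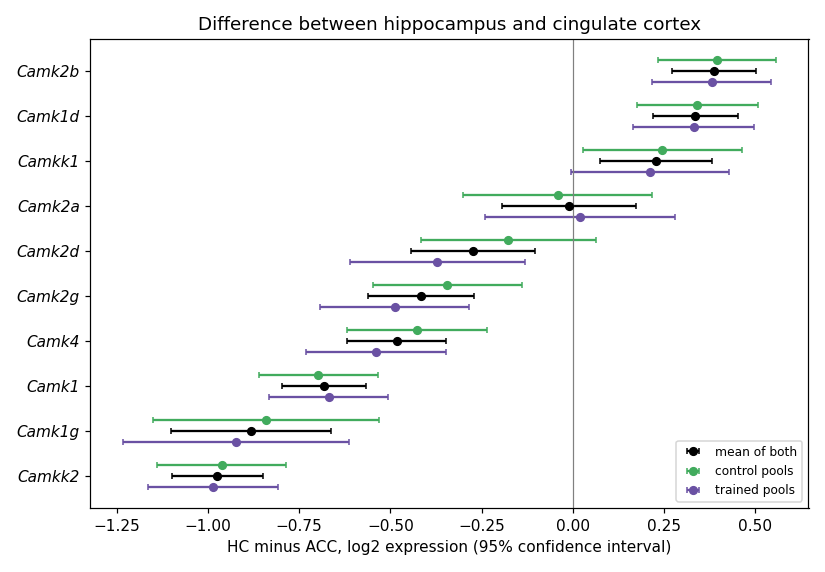
HC minus ACC on the log2 scale (x axis) for each CaM kinase gene (y axis), with 95% confidence intervals from limma, for the mean of both conditions (black), control pools (green) and trained pools (purple). Camkk2, Camk1g and Camk1 lie farthest below 0 and Camk2b and Camk1d farthest above it, and the control and trained intervals of every gene overlap.

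The upstream sequence of the genes with the largest differences each way is shown so that the promoters of kinases that were lower in HC can be set beside those that were higher. The 250 bases before the start of the RefSeq transcript are given 5′ to 3′ on the gene's own strand (build GRCm38.p6), in lower case. The start used lies inside the annotated gene for all of them but Camk1, so that other transcripts can begin farther upstream, and Camk1d is shown for 1 of its 2 starts. Capitals mark 3 motifs searched on both strands: the core of the cyclic AMP response element bound by CREB (TGACG), the GC box (GGGCGG) and the CCAAT box (CCAAT). In Camk2b the GC boxes at the right overlap by 1 base.
Lower in HC, Camkk2, chr5:122779411-122779660, minus strand: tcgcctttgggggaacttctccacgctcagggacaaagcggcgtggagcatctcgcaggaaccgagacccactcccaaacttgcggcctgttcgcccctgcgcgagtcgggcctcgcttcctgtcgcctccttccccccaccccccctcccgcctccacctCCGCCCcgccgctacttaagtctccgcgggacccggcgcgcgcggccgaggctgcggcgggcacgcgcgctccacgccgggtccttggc
Lower in HC, Camk1g, chr1:193370283-193370532, minus strand: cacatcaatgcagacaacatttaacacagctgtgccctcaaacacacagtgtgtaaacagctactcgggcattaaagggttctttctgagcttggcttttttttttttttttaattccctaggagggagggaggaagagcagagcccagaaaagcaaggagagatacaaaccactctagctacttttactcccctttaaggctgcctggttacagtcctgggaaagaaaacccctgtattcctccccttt
Lower in HC, Camk1, chr6:113343923-113344172, minus strand: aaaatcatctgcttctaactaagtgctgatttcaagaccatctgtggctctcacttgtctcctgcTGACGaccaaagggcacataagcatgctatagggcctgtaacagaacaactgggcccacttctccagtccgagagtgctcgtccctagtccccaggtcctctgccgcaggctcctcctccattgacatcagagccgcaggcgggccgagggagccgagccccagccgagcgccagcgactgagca
Higher in HC, Camk2b, chr11:6065749-6065998, minus strand: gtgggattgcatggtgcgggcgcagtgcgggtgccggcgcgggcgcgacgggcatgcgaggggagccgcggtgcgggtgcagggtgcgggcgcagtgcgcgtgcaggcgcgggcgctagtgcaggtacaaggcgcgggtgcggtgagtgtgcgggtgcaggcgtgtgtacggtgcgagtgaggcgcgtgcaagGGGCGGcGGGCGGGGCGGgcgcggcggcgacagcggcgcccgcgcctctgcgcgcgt
Higher in HC, Camk1d, chr2:5714763-5715012, minus strand: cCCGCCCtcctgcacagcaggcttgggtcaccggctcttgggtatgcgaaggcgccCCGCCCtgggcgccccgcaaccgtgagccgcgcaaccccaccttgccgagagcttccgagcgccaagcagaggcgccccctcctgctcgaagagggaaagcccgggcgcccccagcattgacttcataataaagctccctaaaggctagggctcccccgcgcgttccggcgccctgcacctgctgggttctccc

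The GC box was present in 3 of these 5 windows: 3 times in Camk2b, 2 times in Camk1d and once in Camkk2. Camk1 and Camk1g held none, and over all 32851 promoter windows of this length 32.7% held it. The CREB core stood once, in Camk1, against 17.8% of all windows, and no CCAAT box was found in these 5, against 33.8%. The complete palindrome (TGACGTCA), held by 1.55% of all windows, and the TATA box letters (TATAAA), held by 12.4%, were in none of them. The GC content was 78.4% for Camk2b, 72.4% for Camkk2, 69.2% for Camk1d, 58.0% for Camk1 and 44.8% for Camk1g, against a median of 52.4%. None of the motifs searched was shared by the 3 genes lower in HC and missing from the 2 that were higher. These matches are a description of the letters only.

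The regional differences were also taken in control and in trained mice apart. Among control pools 7 of 10 kinases were called (5 lower and 2 higher in HC, against 6.40% lower and 6.93% higher, 13.3% in all, over all genes) and among trained pools also 7 (5 lower and 2 higher, against 4.53% and 4.78%, 9.30% in all). They were the same 7 genes, namely Camk2b, Camk2g, Camk4, Camkk2, Camk1, Camk1d and Camk1g. Camkk2 was −0.96 among control and −0.99 among trained pools, Camk1g −0.84 and −0.92, and Camk1 −0.70 and −0.67. Camk2d stood at −0.18 among control pools (adjusted p = 0.333) and −0.37 among trained pools (adjusted p = 0.0555). The difference between these, the region x training effect, was tested directly and none of the 10 passed. The effects ran from −0.19 for Camk2d (95% confidence interval −0.53 to 0.15) to 0.061 for Camk2a (−0.31 to 0.43), with adjusted p of 0.763 or more and 0 at an unadjusted p under 0.05, against 8.86% of all genes (0% at an adjusted p). These intervals are wide enough to hold effects of a size like the smaller regional differences.

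With 3 pools a group, 2 of these calls depended on single arrays. Among control pools Camk2g (−0.34, adjusted p = 0.0295) had an adjusted p of 0.103 without ACC control pool 1, of 0.0755 without ACC control pool 3 and of 0.0678 to 0.0788 without any 1 of the HC control pools. Among trained pools Camk1d (0.33, adjusted p = 0.0149) had 0.0624 without ACC trained pool 1 and 0.0646 without HC trained pool 1. Camk2d among trained pools was called (0.0328 to 0.0492) when ACC trained pool 1, ACC control pool 1 or ACC control pool 2 was left out.

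The 4 group means of 9 kinases fell into a regional order. For Camkk2, Camk1, Camk1g, Camk4, Camk2g and Camk2d both ACC groups were above both HC groups, and for Camk2b, Camk1d and Camkk1 both HC groups were above both ACC groups. Within a region, the neighbouring trained and control means of these genes differed by −0.046 to 0.16 (trained minus control) in ACC and by −0.19 to 0.024 in HC, none past the test. Camk2a was ordered otherwise, with both trained groups (means of 10.82 in HC and 10.80 in ACC) above both control groups (10.57 in HC and 10.61 in ACC).

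Training changed none of the 10 kinases by the test. At an adjusted p under 0.05 from limma, 0 of 10 were called in ACC and 0 in HC, as were 0% of all genes in either region, and 0 of 10 had an unadjusted p under 0.05 in either region, against 6.95% of all genes in ACC and 6.82% in HC. The median absolute training difference of the kinases was 0.039 in ACC and 0.071 in HC, against 0.080 in each region over all genes. Over the genes at or above the median level it was 0.070 in ACC and 0.069 in HC. In ACC 5 of the 10 were above 0 and 5 below, and in HC 4 above and 6 below. For 5 of the 10 in each region the sign was the same in both batches. The 95% confidence intervals of all 10 lay between −0.35 and 0.45 in ACC and between −0.44 and 0.52 in HC, so that changes within these bounds could go undetected with 3 pools a group.

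**Figure D3:**
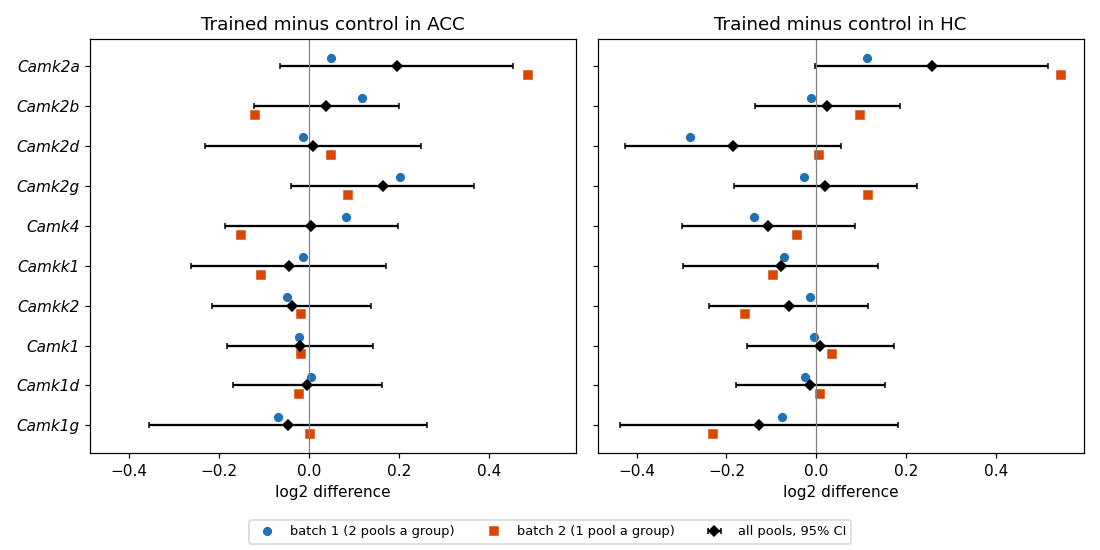
Trained minus control on the log2 scale (x axis) in ACC (left) and HC (right) for each CaM kinase gene (y axis): diamonds with 95% confidence intervals for all pools, circles for batch 1 (2 pools a group) and squares for batch 2 (1 pool a group). All intervals include 0, and the batch 2 values of Camk2a (0.49 and 0.54) stand apart from its batch 1 values (0.049 and 0.11).

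Camk2a came nearest to a training difference. In ACC its pools stood at 10.81, 10.75 and 10.85 in trained and at 10.67, 10.80 and 10.36 in control mice. In HC they stood at 10.73, 10.86 and 10.88 in trained and at 10.70, 10.66 and 10.34 in control mice. The HC groups did not overlap (nor did those of 12.3% of all genes), the ACC groups did (11.6% of all genes did not), and in both regions the low value was that of control pool 3. The training difference came to 0.19 in ACC (SE 0.12, adjusted p = 0.802) and to 0.26 in HC (SE 0.12, adjusted p = 0.729). As a mean of both regions it was 0.23 (95% confidence interval 0.042 to 0.41), the only one of the 10 at an unadjusted p under 0.05 (0.0199, adjusted p = 0.928 from limma), where 5.04% of all genes are and 0% pass after adjustment. In batch 1 the difference was 0.049 in ACC and 0.11 in HC, and in batch 2 it was 0.49 and 0.54. Without ACC control pool 3 the ACC difference was 0.072, and without HC control pool 3 the HC difference was 0.14.

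Most of the 20 brightest genes of the arrays were also higher in the trained pools of batch 2. Camk2a was the gene with rank 20 by mean level, and the other 19 of the 20 brightest had a median training difference of 0.016 in ACC and −0.0055 in HC in batch 1, against 0.18 and 0.21 in batch 2. In batch 2, 16 of these 19 were higher in the trained pool in ACC and 18 in HC, compared with 13 and 9 in batch 1. Of the 100 brightest genes, 98 were not among the 10 kinases. Their median training difference was 0.014 in ACC and −0.0068 in HC in batch 1, against 0.092 and 0.072 in batch 2. In batch 2, 75 of these 98 were higher when trained in ACC and 83 in HC, against 62 and 47 in batch 1. Camk2b, at rank 58, stood at −0.12 in ACC and 0.097 in HC in batch 2. Correlation with Camk2a over the 12 arrays was compared among 13713 other genes above background, with predicted genes, receptors and small RNAs left out. It was highest for the brightest gene of all, Rn18s-rs5, a sequence related to ribosomal RNA (r = 0.920). Rn18s-rs5 is named below by its values in single pools. This gene stood at 12.27 in ACC control pool 3 and 12.28 in HC control pool 3, at 13.33 in both trained pools 3, and at 12.90 to 13.02 in the pools of batch 1. The difference of Camk2a in batch 2 exceeded the batch 2 medians of both sets of bright genes in each region. The part of these differences among bright genes in the Camk2a result was not tested further. This comparison was chosen after the values were seen.

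**Figure D4:**
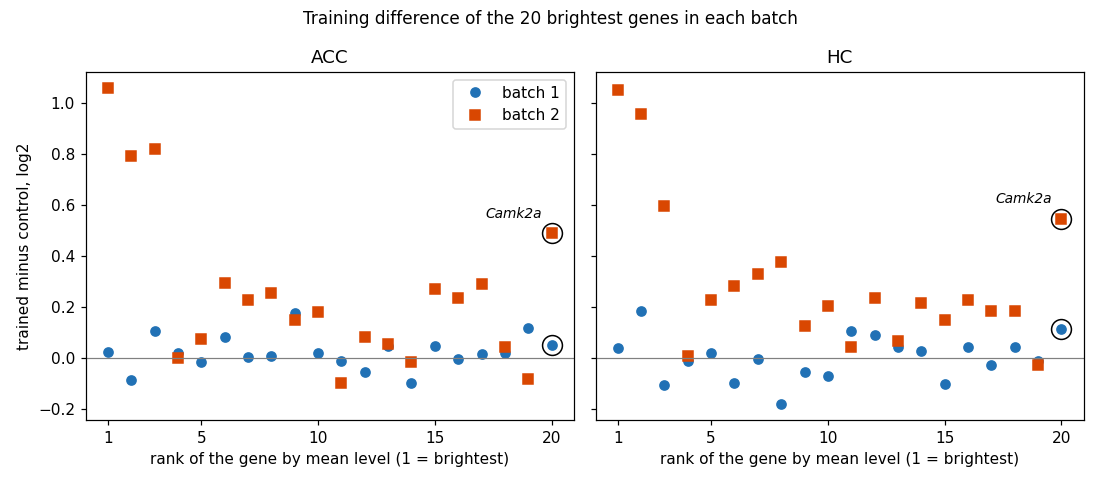
Trained minus control on the log2 scale (y axis) for the 20 brightest genes, ordered by mean level over the 12 arrays (x axis, 1 is the brightest), in ACC (left) and HC (right), with circles for batch 1 and squares for batch 2. Camk2a, ringed, is at rank 20, and most of the other bright genes are also above 0 in batch 2 (16 of 19 in ACC and 18 of 19 in HC) while batch 1 scatters about 0.

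Among the other kinases the largest training differences were those of Camk2d in HC and Camk2g in ACC. Camk2d stood at 6.40, 6.22 and 6.46 in HC trained and at 6.50, 6.68 and 6.46 in HC control pools, a difference of −0.19 (SE 0.11, adjusted p = 0.818), which was −0.28 in batch 1 and 0.005 in batch 2. Camk2g stood at 8.40, 8.45 and 8.31 in ACC trained and at 8.35, 8.10 and 8.22 in ACC control pools. Its difference of 0.16 (SE 0.094, adjusted p = 0.779) was 0.20 in batch 1 and 0.087 in batch 2, and the groups overlapped. For Camk4, whose kinase acts mainly in the nucleus, trained minus control was 0.005 in ACC (95% confidence interval −0.19 to 0.20) and −0.11 in HC (−0.30 to 0.085). For Camkk2 it was −0.038 (−0.22 to 0.14) and −0.062 (−0.24 to 0.12).

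The genes around the kinases were read from 7 lists, 95 genes in all, each of which was measured. The lists too were chosen with earlier results of these data known. Between regions 35 of the 95 (36.8%) were called, 17 higher and 18 lower in HC, against 18.5% of all genes and 30.0% of those at or above the median level. Their median difference was −0.031 and their median absolute difference 0.15.

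**Figure D5:**
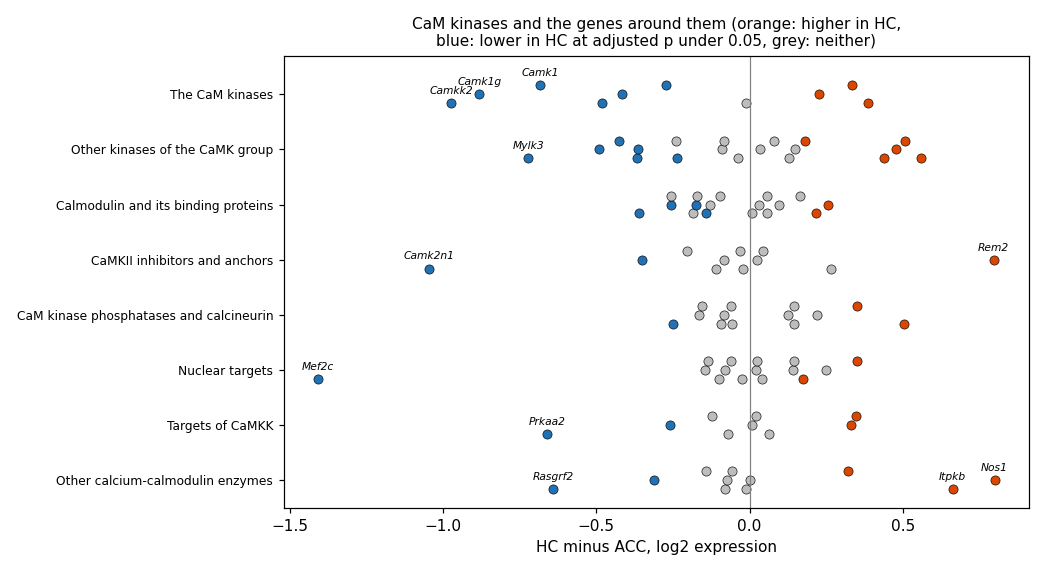
HC minus ACC on the log2 scale (x axis) for the 10 CaM kinases and the 95 genes of 7 lists (y axis, 1 row a list, the offset within a row has no meaning), coloured by the limma call. Camk2n1, a CaMKII inhibitor (−1.05), and Mef2c (−1.41) lie farthest toward ACC, and Rem2 (0.80) and Nos1 (0.80) farthest toward HC.

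Closest to CaMKII are its inhibitors and anchors, of which 1 was higher and 2 were lower in HC among 11. Camk2n1 encodes a small protein that binds and inhibits active CaMKII. It ran from 9.96 to 10.14 in ACC and from 8.84 to 9.23 in HC, a difference of −1.05 (SE 0.065, adjusted p = 2.22e-07), larger than that of any of the 10 kinases. Rem2, a small GTPase of the RGK family, was higher in HC by 0.80 (3.81 to 4.01 in ACC, 4.47 to 4.94 in HC), and Actn4, an actin crosslinker, differed by −0.35. The related inhibitor Camk2n2 and anchors such as Grin2b, Dlg4 and Shank3 did not pass.

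Among 19 other kinases of the same group, 5 were higher and 6 lower in HC. Pnck, the CaMKIβ gene, was higher by 0.56 (SE 0.097, adjusted p = 0.00121), from 6.08 to 6.46 in ACC and 6.53 to 7.03 in HC, so that among the CaMKI genes Pnck and Camk1d were higher and Camk1 and Camk1g lower. Phkg1, a catalytic subunit of phosphorylase kinase, was higher by 0.51. Mylk3, a myosin light chain kinase known from the heart, differed by −0.72 with values between 3.33 and 4.02 in ACC and between 2.83 and 3.12 in HC, near the background, and Dclk3 by −0.49.

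For the genes that switch the kinases off or act beside them, 2 of 13 phosphatase and calcineurin genes were higher and 1 lower. Ppm1e, a phosphatase that dephosphorylates CaM kinases, was higher in HC by 0.50 (7.65 to 7.96 in ACC, 8.21 to 8.37 in HC), Ppp3ca, the catalytic calcineurin subunit, by 0.35, and Cabin1, a calcineurin inhibitor, differed by −0.25. Of 17 calmodulin and calmodulin-binding genes 2 were higher and 4 lower. Camta2, a transcription activator that binds calmodulin, stood at 0.25 and Add2, an adducin, at 0.22, while Gap43, a growth cone protein, stood at −0.36 and Basp1, another protein of growth cones, at −0.26.

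Among kinase targets, 2 of 9 targets of the kinase kinases were higher and 2 lower in HC. The 2 catalytic subunits of AMP-activated protein kinase went opposite ways. Prkaa1 was higher by 0.35 (SE 0.059, adjusted p = 0.000949), from 6.73 to 7.01 in ACC and 7.05 to 7.33 in HC, and Prkaa2 differed by −0.66 (SE 0.067, adjusted p = 1.47e-05), from 7.99 to 8.24 in ACC and 7.30 to 7.65 in HC. The regulatory subunit Prkag2 was higher by 0.33, and Akt2, a kinase of insulin signalling, differed by −0.26. Of 15 nuclear targets 2 were higher and 1 lower, namely Crtc3, a CREB coactivator, at 0.35, the transcription factor Mef2a at 0.17, and its relative Mef2c at −1.41. Of 11 other enzymes that calcium and calmodulin control, 3 were higher and 2 lower. Nos1, neuronal nitric oxide synthase, stood at 0.80 and Itpkb, an inositol trisphosphate kinase, at 0.66, while the Ras activator Rasgrf2 stood at −0.64 and the phosphodiesterase Pde1a at −0.31. With training, 0 of the 95 were called in ACC and 0 in HC.

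The genes most like each kinase over the 12 arrays were taken by Pearson's r, as a description, from 13713 others that lie above background and have an established symbol (predicted genes, receptors and small RNAs left out). The likeness mostly follows the regional difference. For Camkk2 they were Tox (r = 0.994) and Mtcl1 (0.992), for Camk1 Doc2a (0.990) and Arhgap10 (0.989), and for Camk1g Midn (0.982) and Cdyl2 (0.981). For Camk4 they were Zfp804b (0.987) and Afap1l1 (0.984), and for Camk2g Ankrd34c (0.976) and Adam23 (0.969). On the HC side they were Dpp6 (0.993) and Sertm1 (0.985) for Camk1d, Ptbp3 (0.990) and Sema3e (0.987) for Camk2b, and Syndig1l (0.948) and Pik3cb (0.943) for Camkk1. For Camk2d they were Zbtb10 (0.938) and Cdh13 (0.934), and for Camk2a, after Rn18s-rs5, the chaperone gene Hspa8 (0.842). Among the kinases themselves r over the arrays ran from −0.964 to 0.987 across 45 pairs, and from −0.725 to 0.768 once each group's mean was taken off, with 12 arrays in each case.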

How the data were processed

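RNA pooled from ACC or HC of trained and control mice was hybridised to Mouse Gene 2.0 ST arrays. The authors made the deposited log2 values with RMA (affy 1.62.0, R 3.6.0, custom probe sets holding 1 set per Entrez gene). Per the methods both batches were analysed together, and any batch adjustment is not given in the sources used here. RMA narrows large differences, and probes of related genes or isoforms are not told apart within a gene. Columns were matched to groups by sample label. Symbols came from the platform table (26794 probe sets) and otherwise from RefSeq by Entrez identifier.

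Here limma 3.58.1 (lmFit, eBayes, R 4.3.3) was fitted to all 27381 genes and 12 arrays with 4 group means, without a filter, for 7 contrasts. The p-values are two-sided and adjusted (Benjamini-Hochberg) across all genes, contrast by contrast. The p-values measure the spread between pools of mice, not between single mice. The 12 arrays were taken as independent, although regions can share mice and trained and control pools can share litters. The fit was tested on simulated data with independent arrays, which cannot show the effect of shared mice or litters. The members and lists were chosen with earlier results of these data known. Named were all 10 kinases, up to 2 genes each way per pathway list by size among those called, and the 2 genes most like each kinase. Rn18s-rs5 and the brightest genes were set beside Camk2a after their values were seen. Promoter sequences are from RefSeq (GRCm38.p6), with entries for 7 of the members used. Alternatives were a replicate or batch block, each batch alone, only the groups compared, quantile normalization again, median centring, another variance model, array weights, 2 filters on dim genes, and each array left out in turn.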

Additional observations from a re-analysis of the deposited data

How the results depend on the processing

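No training call appeared for any of the 10 kinases in any alternative that was tested. Between regions, 7 to 9 of the 10 were called under every alternative tested (9 as reported), 7 to 8 with an array left out and 7 in batch 1 alone. Camk2b, Camk2g, Camk4, Camkk2, Camk1, Camk1d and Camk1g were called in each of these, and the calls for Camk2d and Camkk1 were not. In batch 1 alone 4 kinases instead of 7 were called between regions among control pools and 3 instead of 7 among trained pools, with 2 pools a group. Over all 27381 genes the calls in batch 1 alone also fell, from 5054 to 2863 between regions. Among control pools they fell from 3649 to 1633 and among trained pools from 2547 to 1135. Camk1d among trained pools had adjusted p = 0.0509 when only the groups compared were fitted, and Camk2g among control pools 0.0700 with median centring, whereas Camk2d among trained pools passed (0.0262 to 0.0474) with quantile normalization again, the other variance model, array weights and both filters. Fitting only the groups compared gives nothing separate for contrasts that use every group, and batch 2 alone gives values with no test. The genes of the pathway lists called between regions were 33 to 43 against 35. All 10 kinases lay above the receptor level.

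Deviations of pools with the same replicate number correlated at r = −0.266 to 0.0431 over 18 pairs, none above 0.1. Pairs of pools numbered 3 all lay between −0.266 and −0.183. Pairing by replicate number was not seen, but these values cannot show whether pools share mice or litters. With the replicate number as a block 8 kinases were called between regions, with 4431 genes in place of 5054, and Camkk1 had adjusted p = 0.0603. No other call of a kinase changed under the block.

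Among the alternatives with a test, a sign changed only where a kinase had not passed, and the cause was not tested. With quantile normalization again they were −0.045 for Camk2a between regions in trained pools, −0.023 for both Camk2d and Camk4 with training in ACC, −0.016 for Camk2b in HC, −0.0037 for Camk2b over both, and 0.021 for Camkk1, 0.020 for Camkk2 and 0.030 for Camk1d in the region x training effect. With median centring they were 0.012 for Camk2a between regions and 0.011 in control pools, 0.017 for Camk1 and 0.033 for Camk1d with training in ACC, −0.0029 for Camk2g and −0.014 for Camk1 in HC, 0.0016 for Camk1 over both and −0.031 for its region x training effect. With array weights they were −0.011 for Camk4 with training in ACC, 0.0017 for Camk1 over both, and 0.0079 for Camk2b and 0.0013 for Camk1d in the region x training effect. In batch 2 alone, with 1 pool a group and no test, 14 of the 70 differences of the 10 kinases in 7 contrasts had the other sign, none of them called, the largest being 0.218 for Camk2b and 0.106 for Camk4 in the region x training effect and −0.150 for Camk4 and −0.121 for Camk2b with training in ACC. In batch 1 alone the changed values were −0.012 for Camk2d and 0.0048 for Camk1d with training in ACC, −0.012 for Camk2b, −0.028 for Camk2g and −0.0049 for Camk1 in HC, and 0.036 for Camkk2 in the region x training effect.

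With each array left out in turn, the ranges of the results that changed sign were as follows. Between regions it was −0.072 to 0.047 for Camk2a. Between regions in control pools it was −0.164 to 0.074 for Camk2a. Between regions in trained pools it was −0.0090 to 0.066 for Camk2a. With training in ACC they were −0.044 to 0.062 for Camk4, −0.141 to 0.070 for Camkk1, −0.047 to 0.045 for Camk1d, −0.191 to 0.127 for Camk1g, −0.0076 to 0.080 for Camk2b, −0.077 to 0.094 for Camk2d and −0.035 to 0.0060 for Camk1. With training in HC they were −0.032 to 0.113 for Camk2g, −0.051 to 0.069 for Camk1, −0.044 to 0.021 for Camk1d and −0.0055 to 0.051 for Camk2b. Over both regions they were −0.030 to 0.015 for Camk1d and −0.035 to 0.025 for Camk1. In the region x training effect they were −0.058 to 0.036 for Camkk2, −0.056 to 0.032 for Camk2b, −0.149 to 0.062 for Camkk1, −0.059 to 0.033 for Camk1d, −0.254 to 0.063 for Camk1g, −0.055 to 0.184 for Camk2a and −0.031 to 0.089 for Camk1.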
